A study of Mus musculus with 93 samples.

Results

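The cortex of 12 month old WT males exposed to deltamethrin (DM) before birth and until weaning was set against that of oil-exposed WT males of the same age. The sample labels (age, genotype, exposure) put 19 of the 93 RNA-seq libraries of the study in this comparison, 10 from DM-exposed and 9 from oil-exposed mice. Dams of both groups were wild-type females bred to Chd8V986*/+ males, so every litter could hold WT pups and mutant pups that carry 1 truncated copy of *Chd8*, a chromatin remodeler. They ate 3 mg/kg DM or the oil vehicle in peanut butter every 3 days from the day of the vaginal plug, and the last feedings were at PND 22. The DM was thus given to the dam, and the mice were sampled months after the last dose. All 19 mice were male, each came from a litter of its own, and 1 dissector took the tissue. The labels spread them over 4 batches, with 2 DM and 2 oil libraries in batch 1, 2 and 2 in batch 2, 3 and 3 in batch 3, and 3 and 2 in batch 4. A library is cited here by its replicate number within its group.

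DM is a pyrethroid insecticide. Pyrethroids slow the closing of voltage-gated sodium channels, so that neurons fire in bursts or stay depolarized, and mammals clear them through carboxylesterases and oxidases of the Cyp family. The brain of a mouse exposed in this window is still making neurons, glia, vessels and synapses, whereas at 12 months these cells are mature. The comparison asks whether early exposure is still visible in cortical gene expression of adult WT mice, the reference against which the study set its mutants.

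Expression was read from the deposited variance-stabilized values, which are on a log2 scale. The authors had removed batch number, litter number, sex and dissector from them as linear terms. This shifts the level of each gene by its own amount, so a level is not comparable between genes. Steps between batches that are not linear in batch number remain. Ranges of libraries and counts of libraries above or below others therefore also hold differences between batches. Values by library are given here after the fitted technical terms, centred, were taken out, and a difference is DM minus oil on the log2 scale from limma with its standard error (SE). The table holds no read counts, so depth by library is not known here. Markers of excitatory neurons, the main cell of the cortex, had list means of 11.19 to 11.35 in DM libraries and of 11.18 to 11.34 in oil libraries. A first principal component of the residuals of the fit carried 53.7% of their variance and went with batch, with batch means of −14.9, 20.3, 5.10 and −10.4. The 2 oil libraries numbered 1 and 4 stood apart in choroid plexus markers, and oil library 4 also in interferon genes, as described below with each result they touch. The tissue was bulk cortex, in which fewer cells of a type and less RNA per cell cannot be told apart.

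No gene passed the test used here between DM-exposed and oil-exposed WT mice at 12 months. The study itself reported genes altered by DM in WT mice of this age, from DESeq2 at an adjusted p under 0.05. Its model was not refitted here. limma called 0 of 12152 genes (0%) at a Benjamini-Hochberg adjusted p under 0.05, and the lowest adjusted p was 0.212. At an unadjusted p under 0.05 there were 300 genes (2.47%), 141 higher (1.16%) and 159 lower (1.31%) after DM. Differences were small throughout. Their median was −0.0031 with 47.3% of genes above 0, their median size without sign was 0.0333, and among the 300 genes that size was 0.159. The median SE was 0.0647, and the 95% interval of the difference lay inside −0.5 to 0.5 for 99.2% of genes and inside −0.25 to 0.25 for 81.8%. No gene had 2 groups without overlap (0 of 12152). The difference had the same sign in all 4 batches for 202 of the 300 genes (67.3%), against 1654 of all 12152 (13.6%), a share that the choice by p raises. With batch as a factor within each age the median SE was 0.0483, 651 genes (5.36%) had an unadjusted p under 0.05 and 2 passed (0.0165%), *A330102I10Rik* and *Dynlt1a*. With batch as a factor on the WT libraries of 12 months alone, 607 of 12152 genes had an unadjusted p under 0.05 and 0 passed.

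The 15 genes with the smallest p among those higher after DM, taken by that p in this comparison, were of mixed function, and none passed. *A330102I10Rik*, a lincRNA gene of unknown function on chromosome 13 (mm10 29014399 to 29040336, plus strand), led them. Its values ran from 8.66 over a median of 9.05 to 9.26 in DM libraries, and from 8.28 over 8.60 to 9.27 in oil libraries. All 10 DM libraries lay above the oil median and 5 oil libraries lay below every DM library, but the highest oil library, in batch 1, lay above all DM libraries. The difference was 0.37 (SE 0.08, 95% interval 0.21 to 0.54, limma adjusted p = 0.212), and by batch it was 0.03, 0.16, 0.54 and 0.59. Over 41 alternatives of the fit it stayed between 0.28 and 0.52 with adjusted p from 2.4e-06 to 1. It passed in 7 of them, among these without DM library 3 (0.42, adjusted p = 0.029), without oil library 2 (0.45, adjusted p = 0.0010), without batch 1 (0.46, adjusted p = 0.0080) and with batch as a factor (0.37, adjusted p = 0.018).

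*Dynlt1a* encodes a light chain of cytoplasmic dynein, the motor that walks along microtubules. It had 11.13 to 11.57 (median 11.44) in DM libraries and 10.92 to 11.36 (median 11.18) in oil libraries, with 7 DM libraries above every oil library. The difference was 0.23 (SE 0.06, adjusted p = 0.505 with limma). It passed in 4 of 41 alternatives, among them batch as a factor (0.24, adjusted p = 0.021) and sample weights (0.25, adjusted p = 0.011), and adjusted p ran from 0.0099 to 1. Its near-identical copies *Dynlt1b*, *Dynlt1c* and *Dynlt1f* differed by −0.02, −0.05 and −0.08. Whether reads shared between such copies were split among them was not tested. Those 3 copies were looked up after the value of *Dynlt1a* was seen.

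*Lmod3*, which nucleates actin filaments in striated muscle, had the widest difference of the 15 higher genes. It had 7.03 to 7.59 (median 7.35) in DM libraries and 6.58 to 7.31 (median 7.00) in oil libraries. Here 6 DM libraries lay above all oil libraries and 6 oil libraries below all DM libraries, and the difference of 0.41 (SE 0.11, limma adjusted p = 0.5) passed in none of 39 alternatives. *Rian*, an imprinted non-coding RNA expressed from the maternal chromosome, had 14.95 to 15.41 (median 15.22) in DM libraries and 14.80 to 15.19 (median 15.03) in oil libraries. It differed by 0.19 (SE 0.05, limma adjusted p = 1). *Meg3* and *Mirg*, non-coding RNAs of the same imprinted cluster, differed by 0.17 (SE 0.26) and 0.09 (SE 0.16), and were looked up after *Rian* was seen.

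*Trp73*, a transcription factor of a tumor suppressor family that Cajal-Retzius neurons and ciliated cells need, differed by 0.30 (SE 0.09), and by −0.13, 0.40, 0.39 and 0.47 over the batches. *Knstrn*, a protein of the mitotic spindle, differed by 0.27 and was the other gene of the 15 with a batch below 0 (−0.08 in batch 1). *Hyls1*, needed for centrioles and cilia, differed by 0.16 and *Mns1*, a structural protein of sperm flagella and motile cilia, by 0.22. *Pinx1*, a telomerase inhibitor, differed by 0.19, *Pla2g3*, a secreted phospholipase, by 0.27, and *Hacd1*, an enzyme of fatty acid elongation, by 0.22. The remaining 4 were *Tex9* (0.15), *E130008D07Rik* (0.27), *2310002F09Rik* (0.29) and *2410004I01Rik* (0.32), in the last of which 9 of 10 DM libraries lay above every oil library. Across the 15 genes adjusted p ran from 0.212 to 1, and 13 had the same sign in all 4 batches.

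**Figure D1:**
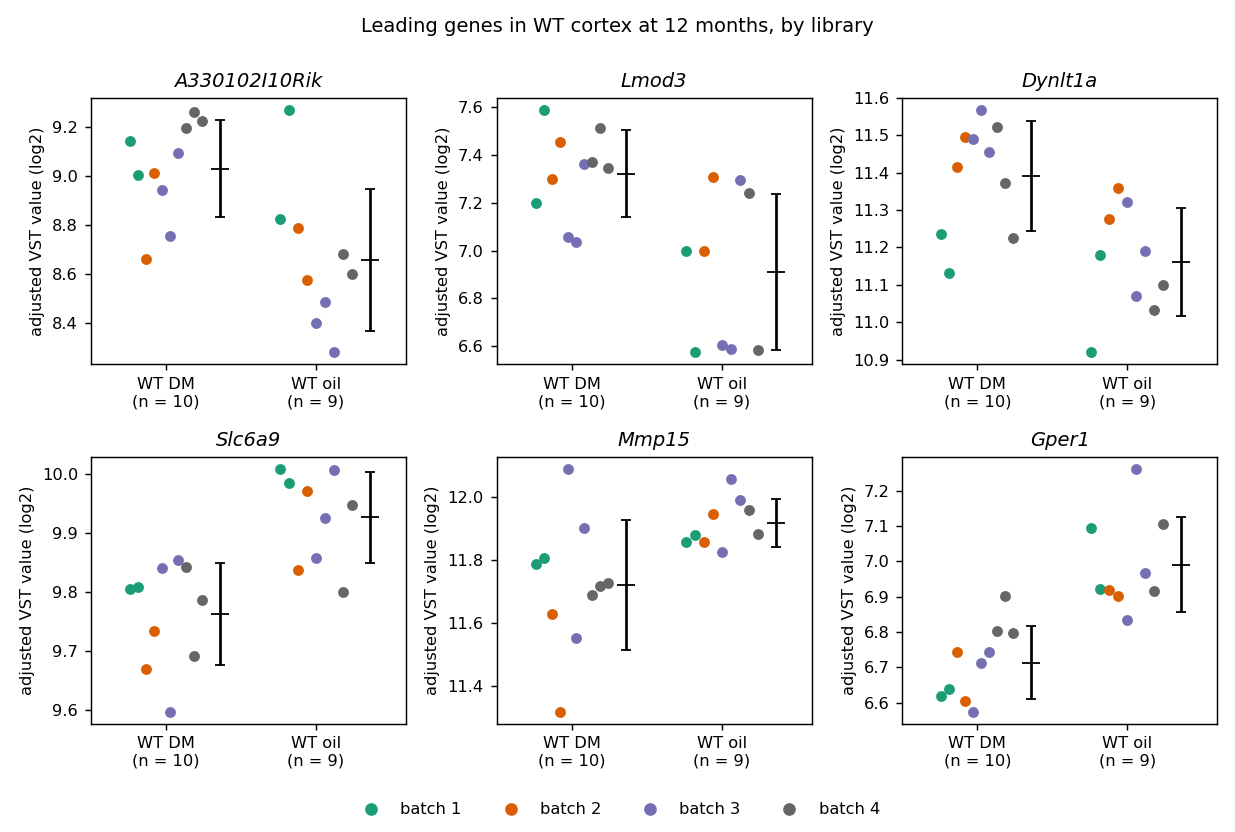
Values of 6 of the genes with the smallest p by library (log2 scale after the fitted technical terms were taken out), with DM libraries left and oil libraries right, points coloured by batch, and bars for the mean and SD. *A330102I10Rik*, *Lmod3* and *Dynlt1a* lie higher and *Slc6a9*, *Mmp15* and *Gper1* lower after DM, and the 2 groups overlap in each.

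The 15 lower genes, taken by the same rule, were also of mixed function. *Slc6a9* encodes the glycine transporter that clears glycine around synapses, mainly in glia. It had 9.60 to 9.86 (median 9.80) in DM libraries and 9.80 to 10.01 (median 9.95) in oil libraries. All 10 DM libraries lay below the oil median and 5 of them below every oil library. The difference of −0.16 (SE 0.04, 95% interval −0.24 to −0.09, limma adjusted p = 0.328) was −0.19, −0.20, −0.17 and −0.10 over the batches. It ranged from −0.18 to −0.14 over 41 alternatives, of which sample weights alone took it past the threshold (adjusted p from 0.021 to 1).

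*Mmp15*, a matrix metalloproteinase anchored in the membrane, had 11.32 to 12.09 (median 11.72) in DM libraries and 11.83 to 12.06 (median 11.88) in oil libraries. In 8 DM libraries it lay below every oil library, while DM library 5 was the highest of all 19. The difference was −0.20 (SE 0.05, limma adjusted p = 0.5). It passed without DM library 5 (−0.24, adjusted p = 0.028) and with sample weights (−0.25, adjusted p = 0.011), and adjusted p over 41 alternatives reached 1. *Gper1*, a G protein-coupled estrogen receptor, had 6.57 to 6.90 (median 6.73) in DM libraries and 6.83 to 7.26 (median 6.92) in oil libraries. In 9 of 10 DM libraries it lay below every oil library, and it differed by −0.28 (SE 0.07, limma adjusted p = 0.5). It passed in none of 40 alternatives.

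*Chrna5*, a subunit of nicotinic acetylcholine receptors, differed by −0.28, and all 10 DM libraries lay below the oil median. *Adgrg3*, an adhesion receptor coupled to G proteins, differed by −0.28, and *Mcam*, an adhesion molecule of vessel cells, by −0.18. *Cdk1*, the kinase that drives mitosis, differed by −0.30 and *Mcm2*, a subunit of the replicative helicase, by −0.21, the only one of the 15 with a batch above 0 (0.01 in batch 4). *Cdc42ep2*, an effector of the GTPase that shapes the actin skeleton, differed by −0.18, *Wipi1*, an autophagy protein, by −0.16, and *Rps6ka1*, a kinase downstream of ERK, by −0.14. *Lrrc46* differed by −0.30, *Ulbp1*, a ligand of natural killer cell receptors, by −0.34, *Rnf141* by −0.15 and *Bre*, a subunit of deubiquitinase complexes, by −0.12. Adjusted p ran from 0.328 to 1 in these 15 genes. No alternative changed the sign of any of the 30.

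Sodium channels are the proteins that pyrethroids bind. Of 12 genes of this family that were examined, 11 were kept by a wider filter. It drops genes with equal values in any pair of 12 month littermates. Of the 11 genes 0 had an unadjusted p under 0.05, against 2.64% (1.31% higher and 1.33% lower) of the 16040 genes kept. This wider set is used for all gene lists, because the shifted levels make a mean under 6 no sign of absence. Its median difference was −0.0036 with 47.2% of genes above 0. Among sodium channel genes 2 were higher and 9 lower after DM, with a median of −0.02. The alpha subunits of brain neurons lay close to 0. *Scn1a*, most used by inhibitory neurons, had 7.55 to 8.28 (median 7.71) in DM libraries and 7.65 to 8.21 (median 7.94) in oil libraries, a difference of −0.08 (95% interval −0.28 to 0.12). *Scn2a*, the main channel of the young axon, differed by −0.02 (−0.25 to 0.22). *Scn8a*, which carries most current at the mature axon initial segment, had 9.94 to 10.86 (median 10.32) in DM libraries and 9.98 to 10.91 (median 10.55) in oil libraries, a difference of −0.04 (−0.28 to 0.20). The 2 groups overlapped over nearly their whole range in each of them. *Scn3a*, the embryonic channel, differed by −0.02. Of these 11 genes *Scn11a*, known from sensory neurons, had the largest positive value, 0.09 (−0.08 to 0.26), and the beta subunit *Scn4b* the largest negative one, −0.11 (−0.41 to 0.19). The beta subunits *Scn2b* and *Scn3b*, which tune gating and surface level, differed by −0.02 and 0.05. *Scn9a* and *Scn10a*, also known from sensory neurons, differed by −0.02 and −0.03, and *Scn7a*, a sodium sensor, by −0.08. All 11 intervals lay between −0.41 and 0.26.

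**Figure D2:**
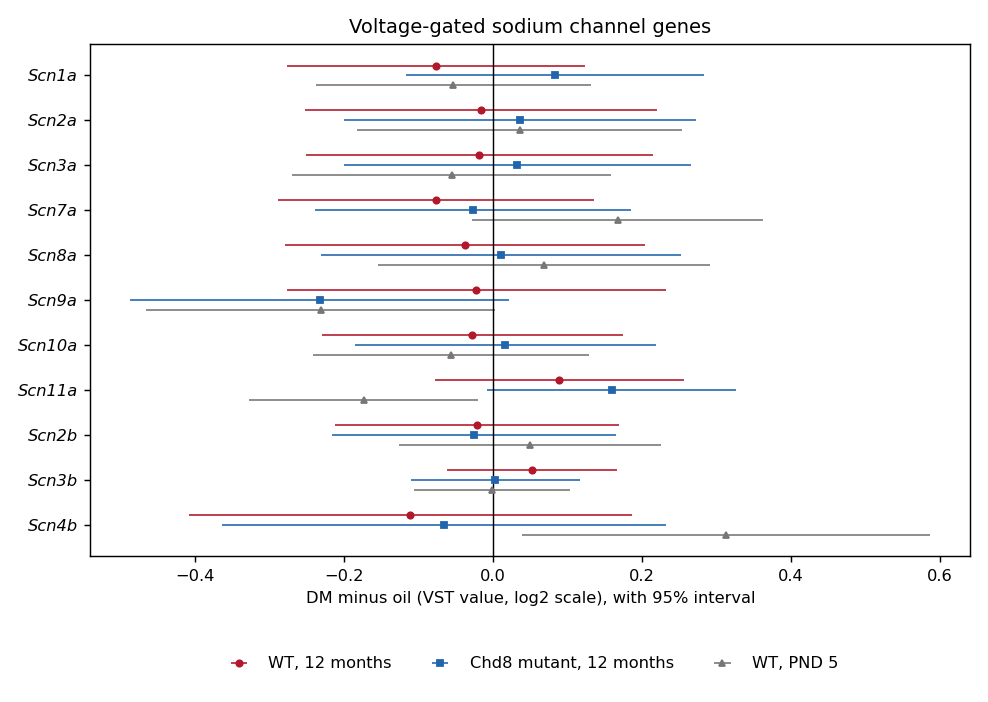
Difference between DM and oil (log2 scale, point) with its 95% interval (bar) for 11 sodium channel genes, in WT mice at 12 months, mutant mice at 12 months and WT mice at PND 5. Every interval of the WT mice at 12 months crosses 0.

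Channels and receptors that act beside sodium channels also lay close to 0. Of 19 potassium channel genes, which repolarize neurons, 1 was above 0 (*Kcnd3*, 0.0010) and 18 below, down to −0.12 in *Kcna3*, and the median was −0.05. These 2 genes were named after their values were seen. Calcium channel genes split as 2 higher and 13 lower of 15 (median −0.02). GABA signaling had 6 higher of 20 (median −0.02), glutamate signaling 7 of 27 (median −0.01) and dopamine signaling, a system often studied after developmental pyrethroid exposure, 6 of 13 (median −0.0043). None of these genes had an unadjusted p under 0.05. The signs within a list are not independent, since such genes share cells and share the step between batches. The median of the sodium channel list changed its sign in 3 of 38 alternatives, that of calcium channels in 8, of glutamate signaling in 2 and of dopamine signaling in 13. Those of potassium channels and GABA signaling changed in 0.

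Genes that clear foreign compounds did not lean either way. Of 36 measured, 18 were higher and 18 lower (median 0.00027), and 1 had an unadjusted p under 0.05. This was *Abcg2*, an efflux pump of brain endothelial cells, with 8.81 to 9.22 (median 9.04) in DM libraries and 8.79 to 9.12 (median 8.90) in oil libraries. It differed by 0.13 (SE 0.06, limma adjusted p = 1), and 9 DM libraries lay above the oil median. *Abcc4*, another efflux pump, differed by 0.09, *Cyp2u1*, a fatty acid hydroxylase, by 0.12, and *Ces1d*, a carboxylesterase, by −0.19 (SE 0.12).

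The study's pathway tables for this comparison name 13 genes that are measured here, picked on libraries that include these, so their direction is no independent evidence. After DM 5 were higher and 8 lower, with a median of −0.06, and 1 had an unadjusted p under 0.05. *Srsf2*, a splicing factor, had 11.87 to 12.08 (median 11.93) in DM libraries and 11.72 to 11.96 (median 11.89) in oil libraries, with 5 DM libraries above every oil library. The difference was 0.09 (SE 0.04, limma adjusted p = 1). The chaperones of the endoplasmic reticulum *Hspa5* and *Pdia6* differed by 0.06 and 0.04, the splicing regulator *Hnrnph3* by 0.08 and the initiation factor *Eif1* by 0.06. *Pdgfrb*, the receptor that pericytes need, differed by −0.11 and *Itgam*, an integrin of microglia, by −0.10. *Man2b2* and *Adamtsl4*, genes of glycan breakdown and of matrix, differed by −0.12 and −0.16. *Sorl1*, a sorting receptor for amyloid precursor protein, differed by −0.13 with an SE of 0.18, *Dock5* by −0.09, *Fmn1* by −0.06 and *Plekha2* by −0.05.

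SR proteins bind exons and recruit the spliceosome. In this family 12 of 13 genes were higher after DM and 1 lower, with a median of 0.07, and *Srsf2* alone had an unadjusted p under 0.05. *Srsf12* differed by 0.09 (SE 0.04), *Srsf10* by 0.07 and *Srsf7* by 0.07. The lower one was *Srsf4* (−0.08), named after its value was seen. The list means of DM and oil libraries overlapped, at 11.71 to 11.89 (median 11.82) in DM and 11.67 to 11.83 (median 11.79) in oil. By batch the list median was −0.02, 0.06, 0.11 and 0.07, and none of 38 alternatives changed the sign of the overall median. Heterogeneous nuclear ribonucleoproteins, the other large family of splicing regulators, split 13 to 10 (median 0.0018), and translation initiation factors 22 to 15 (median 0.01). Chaperones and the unfolded protein response had 11 higher of 26 in the endoplasmic reticulum (median −0.0019) and 5 of 21 in cytosol and mitochondria (median −0.02).

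Most vessel genes were lower after DM, and none of them passed. Of 16 mural cell markers, genes of pericytes and arterial smooth muscle, 1 was higher and 15 lower (median −0.09). *Notch3*, the receptor that keeps mural cells differentiated, had 10.28 to 10.90 (median 10.45) in DM libraries and 10.47 to 11.03 (median 10.68) in oil libraries, with 6 DM libraries below every oil library. It differed by −0.17 (SE 0.08, limma adjusted p = 1). *Pdgfrb* differed by −0.11, *Abcc9*, a potassium channel subunit of pericytes, by −0.11, and *Myh11*, the smooth muscle myosin, by −0.17 (SE 0.14). The list median was below 0 in all 4 batches (−0.09, −0.12, −0.10 and −0.06), and the list means overlapped, at 6.90 to 7.27 in DM and 7.09 to 7.37 in oil libraries. Endothelial markers split 5 higher to 20 lower of 25 (median −0.04). *Kdr*, the main receptor for vascular endothelial growth factor, had 11.11 to 12.07 (median 11.48) in DM libraries and 11.54 to 11.88 (median 11.74) in oil libraries. It was lower than in every oil library in 6 DM libraries and higher in 1, a difference of −0.18 (SE 0.09, limma adjusted p = 1) that was 0.11 in batch 2. *Flt1* differed by −0.11, *Tie1* by −0.13, *Tek* by −0.09 and *Ptprb*, an endothelial receptor phosphatase, by −0.06 (SE 0.08). Genes of the basement membrane and integrins had 10 higher of 37 (median −0.05).

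The genes of arterial smooth muscle are known to be driven through CArG boxes, the sites of serum response factor. Only the exact form CCWWWWWWGG (W is A or T) was counted, so a box that departs from it by 1 base was missed. The search took the 250 bases before the start of 12 mural genes in the RefSeq promoter table (GRCm38.p6). Mural markers outside these 12 were not searched. Of the 12 genes, 1 holds such a box on either strand, against 482 of 32851 promoters (1.47%). It is *Myl9*, a myosin light chain that differed by −0.05. The sequence is shown because it is the one match, with the box in capitals (chr2:156775214-156775463, plus strand, box at −161 to −152 from the start), and it says nothing of binding in these mice.
Myl9 promoter: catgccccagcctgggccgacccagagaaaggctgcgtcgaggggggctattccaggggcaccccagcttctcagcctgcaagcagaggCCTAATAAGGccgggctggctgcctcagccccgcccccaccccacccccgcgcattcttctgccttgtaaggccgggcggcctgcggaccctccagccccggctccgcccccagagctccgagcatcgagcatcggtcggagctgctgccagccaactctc

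Myelin genes of mature oligodendrocytes had 2 higher and 16 lower of 18 (median −0.06), with batch medians of 0.03, −0.07, −0.10 and −0.11, and none of them passed. *Cnp*, an enzyme of myelin, had 7.74 to 8.32 (median 8.05) in DM libraries and 7.85 to 8.41 (median 8.15) in oil libraries, a difference of −0.13 (SE 0.07), and 9 DM libraries lay below the oil median. *Mag* and *Myrf*, a myelin adhesion protein and the regulator of myelin genes, differed by −0.12 and −0.11. *Enpp2*, with −0.17 (SE 0.07) the only one of the list with an unadjusted p under 0.05, is also a gene of choroid plexus, and without oil libraries 1 and 4 it differed by −0.05. Oligodendrocyte precursors had 5 higher of 12 (median −0.02), astrocytes 11 of 16 (median 0.01), microglia 6 of 20 (median −0.02), excitatory neurons 7 of 16 (median −0.02) and inhibitory neurons 6 of 19 (median −0.03). None of these genes had an unadjusted p under 0.05.

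Choroid plexus makes cerebrospinal fluid and lies in the ventricles beneath the cortex. Of 12 measured markers 1 was higher and 11 lower after DM (median −0.30), and 4 had an unadjusted p under 0.05. *Ttr*, the thyroid hormone carrier that defines this tissue, had 0.69 to 3.75 (median 1.76) in DM libraries and 0.82 to 8.62 (median 2.29) in oil libraries. It stood at 8.46 in oil library 1 and 8.62 in oil library 4. No other library passed 3.75. The list mean was 6.30 and 6.50 in those 2 libraries, against 4.42 to 4.77 in DM libraries and 4.31 to 4.76 in the other 7 oil libraries. Over all libraries *Ttr* differed by −1.59, *Kl*, the anti-aging protein klotho, by −0.37, the water channel *Aqp1* by −0.45 and the clotting factor *F5* by −0.38. Without oil libraries 1 and 4, an alternative chosen after the data were seen, they differed by −0.07, −0.05, −0.20 and 0.06 and the list median was 0.08. Meningeal fibroblast genes had 2 higher of 16 (median −0.08).

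**Figure D3:**
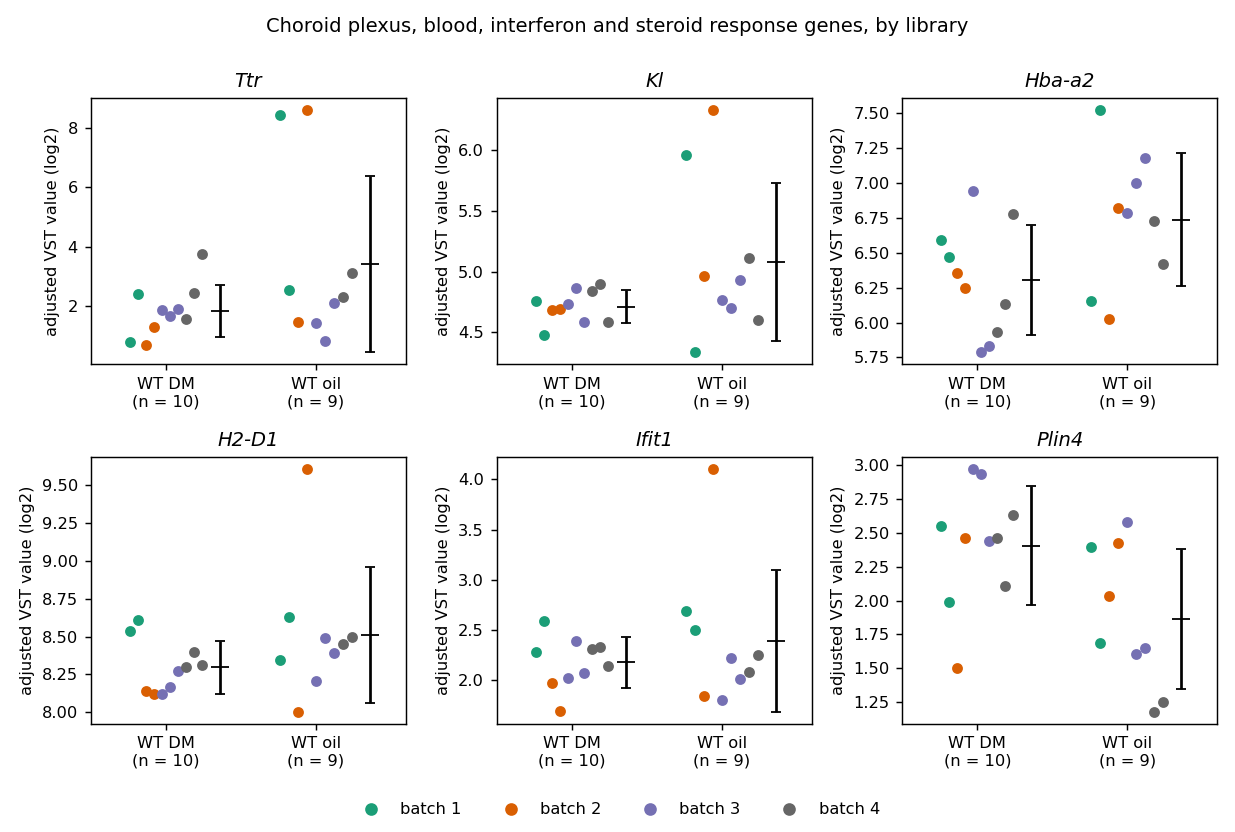
Values by library (log2 scale after the fitted technical terms were taken out) of *Ttr*, *Kl*, *Hba-a2*, *H2-D1*, *Ifit1* and *Plin4*, with DM libraries left and oil libraries right, points coloured by batch, and bars for the mean and SD. *Ttr* is at 8.46 and 8.62 in 2 oil libraries and at most 3.75 elsewhere, and *Ifit1* is at 4.10 in 1 oil library.

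Genes induced by interferon, with those of MHC class I, were lower in 16 of 16 (median −0.11), and the value rested on 1 library. The list mean of oil library 4 was 6.66, against 5.06 to 5.63 in DM libraries and 5.07 to 5.46 in the other oil libraries. *H2-D1*, a class I antigen, had 8.12 to 8.61 (median 8.28) in DM libraries and 8.00 to 9.60 (median 8.45) in oil libraries, and *Ifit1*, an antiviral protein induced by interferon, 1.69 to 2.58 (median 2.21) in DM libraries and 1.80 to 4.10 (median 2.22) in oil libraries. The highest value of each was oil library 4. *H2-D1* differed by −0.22 (SE 0.10, limma adjusted p = 1) and *Ifit1* by −0.21. Without that library they differed by −0.08 and 0.0032, and the list median was 0.04. *Ifitm3* differed by −0.25 with it and −0.14 without it, and *Oasl2* by −0.19 and 0.05.

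Hemoglobin and other blood genes were lower in 7 of the 8 measured (median −0.25), with batch medians of −0.30, −0.17, −0.30 and −0.15. *Hba-a2* had 5.79 to 6.94 (median 6.30) in DM libraries and 6.03 to 7.53 (median 6.79) in oil libraries. It differed by −0.43 (SE 0.18, limma adjusted p = 1), and by −0.51 without oil libraries 1 and 4. *Hba-a1* differed by −0.32, *Hbb-bs* by −0.30 and *Hbb-bt* by −0.29. How much blood was left in the tissue is not given in the sources used here, and its part in these values was not tested. Striatal genes, which mark tissue under the cortex, had 2 higher of 14 (median −0.07) with batch medians of 0.10, −0.38, 0.19 and −0.27, and hippocampal genes 6 of 11.

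Genes that follow stress hormones and neuronal activity differed in sign between batches. Glucocorticoid targets had 10 higher of 16 (median 0.04). *Plin4*, a lipid droplet protein, had 1.50 to 2.97 (median 2.46) in DM libraries and 1.18 to 2.58 (median 1.68) in oil libraries, the largest positive difference of the wider set at 0.54 (SE 0.20, limma adjusted p = 1). By batch it was 0.23, −0.24, 0.84 and 1.19. *Hif3a* differed by 0.29, *Sgk1* by 0.12 and *Fkbp5*, a cochaperone of the glucocorticoid receptor, by 0.08, and all but *Sgk1* were below 0 in batch 2. Immediate early genes, which neurons switch on within minutes of activity, had 2 higher of 18 (median −0.10), with batch medians of −0.38, −0.33, 0.28 and 0.02. *Nr4a1* differed by −0.33 (SE 0.21), *Nr4a3* by −0.15, *Fosl2* by −0.10 and *Egr4* by 0.19. Clock genes split 9 to 7. Ribosomal protein genes were higher in 63 of 75 (median 0.05), with batch medians of 0.23, −0.06, −0.0013 and −0.06, so that batch 1 alone lay above 0. Oxidative phosphorylation had 38 higher of 53 (median 0.02), likewise above 0 in batch 1 only. The median of ribosomal genes changed its sign in 4 of 38 alternatives, among them without batch 1 or with sample weights, that of oxidative phosphorylation in 8 and that of immediate early genes in 2. Cholesterol synthesis had 8 of 22 (median −0.02).

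**Figure D4:**
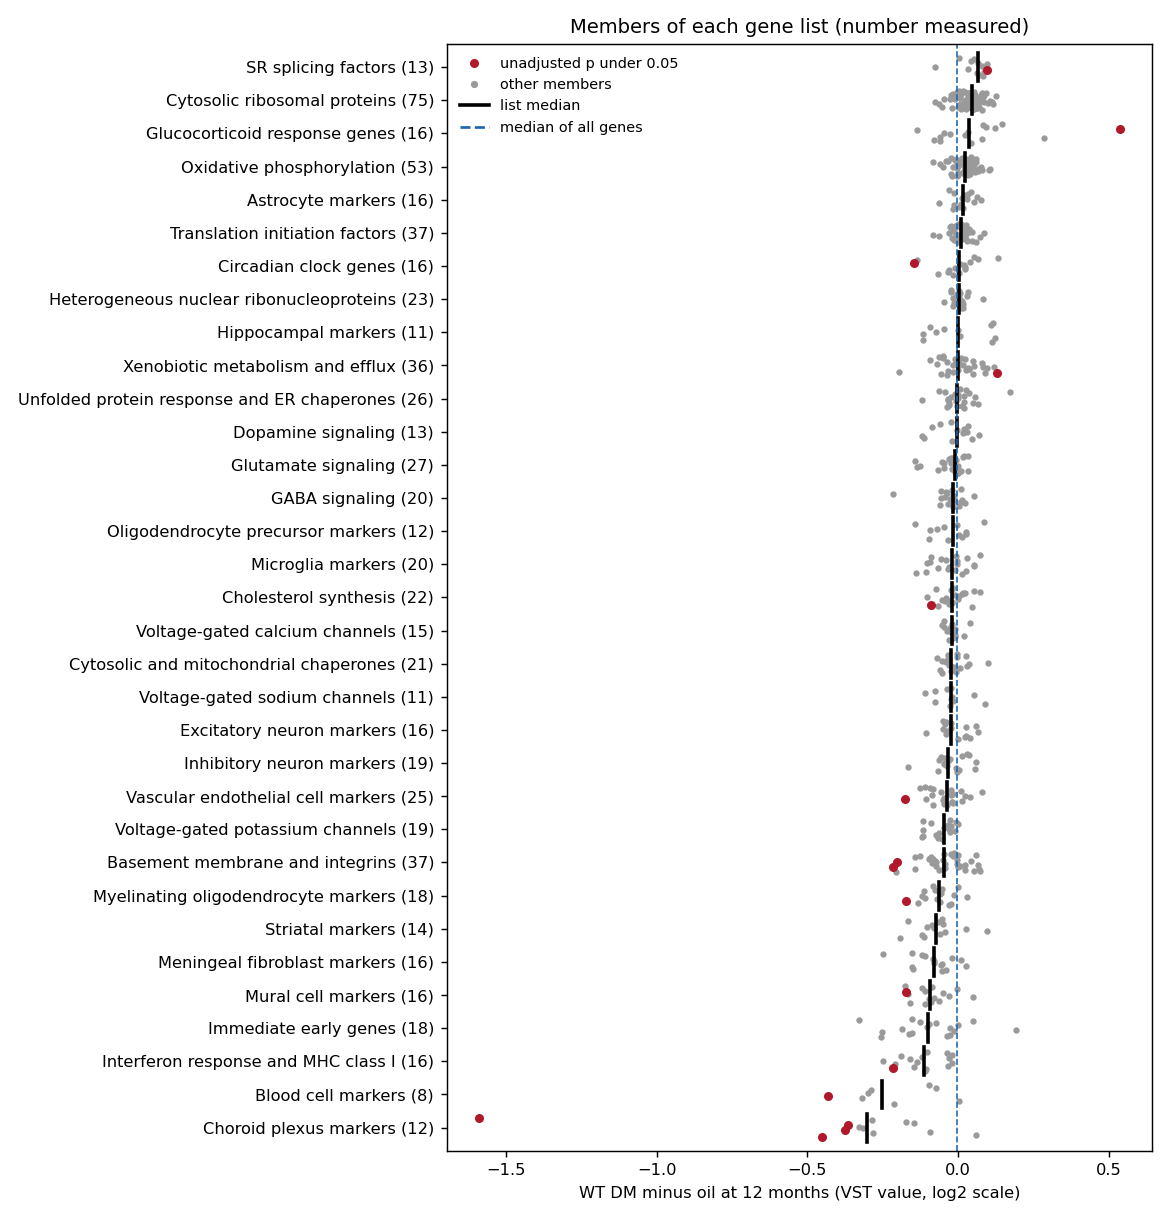
Differences between DM and oil in WT mice at 12 months (log2 scale) for the members of the gene lists (points), with each list's median (bar), the median of all genes (dashed line) and members with an unadjusted p under 0.05 in red. Medians lie between −0.11 and 0.07 except in choroid plexus (−0.30) and blood (−0.25).

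*Chd8* itself, intact in these mice, differed by 0.07 (SE 0.12), with 11.64 to 12.44 (median 11.87) in DM libraries and 11.25 to 12.42 (median 11.99) in oil libraries. The group medians thus lay in the opposite order. Without oil library 1, the lowest at 11.25, the difference was −0.02, and without oil libraries 1 and 4 it was 0.02.

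The mutant littermates, 10 DM and 9 oil, allow the exposure to be compared between genotypes. limma called 0 of 12152 genes in them (0%), with 271 (2.23%) at an unadjusted p under 0.05, and 0 for the difference between genotypes (0%, with 241 at an unadjusted p under 0.05, 1.98%). Of the 300 WT genes 163 (54.3%) had the same sign in mutants, against 47.1% of all genes. An unadjusted p under 0.05 in both genotypes was found for 17 genes, 12 with the same sign and 5 with opposite signs, which is 5.67% of the WT genes and 6.27% of the mutant genes. Across genes the differences had an r of 0.04, over genes that are not independent. Among the 30 leading genes 4 of the 15 higher and 9 of the 15 lower had the same sign in mutants. *Gper1* was lower in both, by −0.28 in WT and −0.16 in mutant mice (SE 0.07 each). *Hacd1* was higher in both, by 0.22 and 0.14. *Trp73* differed by 0.30 in WT and −0.27 in mutant mice, and *Lrrc46* by −0.30 in WT and 0.23 in mutant mice. The difference between genotypes was 0.57 for *Trp73* (adjusted p = 0.194 with limma) and −0.52 for *Lrrc46* (adjusted p = 0.272 with limma), and these were the 2 genes that passed (0.0165%) with litter alone as a random effect (limma adjusted p = 0.0070 and 0.031). With batch as a factor beside litter 0 genes passed (0%, limma adjusted p = 0.062 and 0.148 for these 2), and *Trp73* also passed with sample weights (limma adjusted p = 0.0073) and without DM library 2 or oil library 1. Within mutants, DM minus oil was below 0 for most endothelial markers (median −0.17, 2 higher of 25) and mural markers (median −0.16, 2 higher of 16). The medians were −0.04 and −0.09 in WT mice. In mutants 10 endothelial and 3 mural markers had an unadjusted limma p under 0.05, against 408 of 16040 genes, and in WT mice 1 of each list. For the difference between genotypes these were 2 and 0, against 370 of 16040 genes. *Kdr* differed by −0.18 in WT and −0.26 in mutant mice. SR genes had a median of 0.07 in WT and −0.02 in mutant mice, and myelin genes one of −0.06 in WT and 0.03 in mutant mice. No gene of these 4 lists passed for the difference between genotypes.

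**Figure D5:**
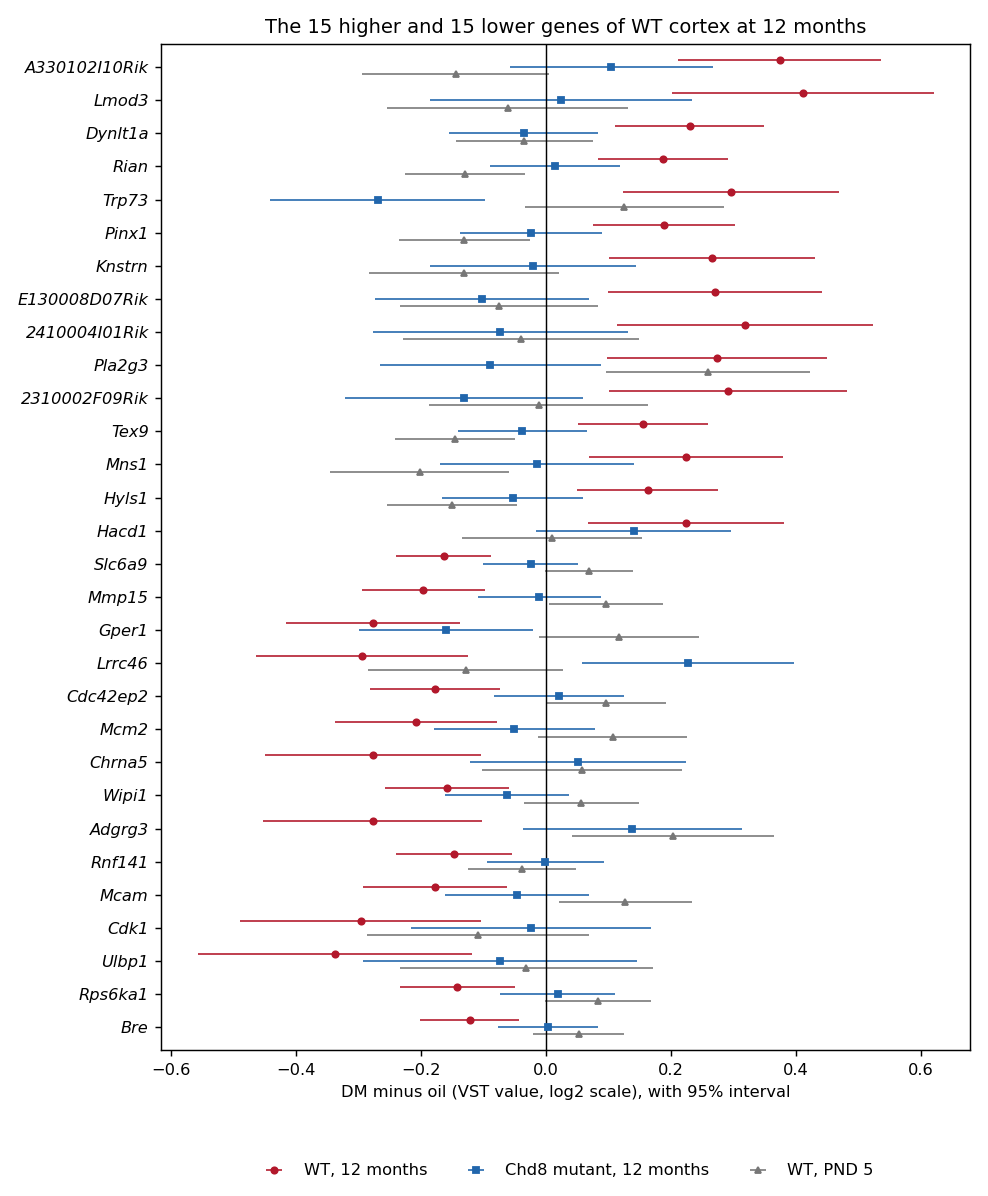
Difference between DM and oil (log2 scale, point) with its 95% interval (bar) for the 30 genes with the smallest p in WT mice at 12 months, shown for WT mice at 12 months, mutant mice at 12 months and WT mice at PND 5. The intervals of WT mice at 12 months exclude 0 because the genes were taken by p there, and most PND 5 values lie on the other side of 0.

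At PND 5, while pups were still exposed, WT cortex came from 12 DM pups of 7 litters and 12 oil pups of 6 litters. Litter letters recur between the ages. As a random effect a litter was read only within an age, while the litter number term of the fit took the letters over both ages. Here limma called 562 of 12152 genes (4.62%), 0 (0%) once litter was a random effect, and 826 (6.8%) with litter as a random effect and batch as a factor, an alternative chosen after the data were seen. The exposure differed between 12 months and PND 5 in 93 genes (0.765%, 33 above 0 and 60 below), with 1883 (15.5%) at an unadjusted p under 0.05, and in 0 genes with litter as a random effect. It was 257 genes (2.11%) when batch was also a factor. Single 12 month libraries moved the count of 93 to 0 (without DM library 6 or oil library 6) and to 330 (without DM library 5). It also moved by more than 1.5 times, to between 43 and 175, without DM library 3, 4, 8 or 9, or without oil library 1, 3, 4, 5, 7, 8 or 9. Of the 300 genes with an unadjusted p under 0.05 at 12 months, 79 (26.3%) had the same sign at PND 5, against 36.6% of all genes. An unadjusted p under 0.05 at both ages was found for 70 genes, of which 5 had the same sign and 65 opposite signs. The 70 are 23.3% of the 300 genes, near the share of all genes with such a p at PND 5 (2418 of 12152, 19.9%). Across genes the 2 differences had an r of −0.34, of −0.27 with batch as a factor and of −0.22 with each age fitted alone. The ages share no library, but the first 2 of these fits share the slopes on the technical terms.

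Among the 30 leading genes 3 of the 15 higher and 4 of the 15 lower had the same sign at PND 5, and 12 passed for the difference between ages. That test contains the 12 month difference by which the 30 were picked. A share above the 0.765% of all genes is thus built in and is no independent evidence. *A330102I10Rik* differed by 0.37 at 12 months and −0.14 at PND 5 (difference 0.52, limma adjusted p = 0.027). *Slc6a9* differed by −0.16 at 12 months and 0.07 at PND 5 (difference −0.23, limma adjusted p = 0.027). *Gper1* differed by −0.28 at 12 months and 0.12 at PND 5 (difference −0.39, limma adjusted p = 0.031). *Pla2g3* was the gene of the 30 called at PND 5, 0.27 at 12 months and 0.26 at PND 5. Medians of several lists had opposite signs at the 2 ages, as most genes did. Mural markers had a median of −0.09 at 12 months and 0.20 at PND 5, where 16 of 16 were higher and 4 passed, against 4.49% of the 16040 genes. Endothelial markers had −0.04 and 0.14, with 23 of 25 higher and 4 passing at PND 5. With litter alone as a random effect 0 of these genes passed at PND 5, and with batch as a factor beside litter 4 of each list did. Meningeal fibroblast markers, genes of the membranes over the cortex, moved with them at PND 5, with a median of 1.34, 16 of 16 higher and 12 passing (0 with litter alone, 14 with batch as a factor beside it), beside −0.08 at 12 months. Their list mean at PND 5 was 4.02 to 6.91 (median 5.70) in 12 DM pups and 3.16 to 5.63 (median 4.61) in 12 oil pups, and its part in the vessel values was not tested. *Pdgfrb* differed by −0.11 at 12 months and 0.29 at PND 5 (difference −0.40, limma adjusted p = 0.027), and *Tie1* by −0.13 and 0.27 (difference −0.40, limma adjusted p = 0.031). SR genes had a median of 0.07 at 12 months and −0.13 at PND 5, with 12 of 13 higher at 12 months and 1 of 13 at PND 5, where 4 passed (0 with litter alone as a random effect, 5 with batch as a factor beside it). *Srsf7* differed by 0.07 at 12 months and −0.16 at PND 5 (difference 0.22, limma adjusted p = 0.028), and *Srsf10* by 0.07 and −0.15 (difference 0.22, limma adjusted p = 0.035). None of these calls between ages held with litter alone as a random effect, and those of the genes named here held with batch as a factor beside it. Sex, which is mixed at PND 5, dissector and batch were terms of the fit, and their part in the opposite signs was not tested.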

How the data were processed

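Cortex was measured by polyA RNA-seq of bulk tissue. Reads had been quality-filtered (FASTX toolkit), adapter-trimmed (cutadapt 1.12) and mapped (STAR 2.5.2b, mm10), and Salmon estimates were turned into log2 values by the authors through DESeq2's variance-stabilizing transformation. The deposited table holds 24528 genes in 82 libraries of PND 5 and 12 months, and it also carries a linear removal of technical terms. Slopes on batch number, litter number, sex and dissector are 0 for all its genes when no groups are modelled. No counts are given, so precision rests on the number of animals. The 11 libraries of 18 months were not used.

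R 4.3.3 with limma 3.58.1 (statmod 1.5.0) modelled 8 groups (age by genotype by exposure) plus those 4 technical terms in the 12152 genes with a mean of at least 6, using eBayes with trend and a Benjamini-Hochberg adjusted p under 0.05. The model was tested on simulated data with independent errors, without correlation within litters and with batch only as a linear term. That test does not reach the litter and batch structure of these data. The study's methods used counts in DESeq2, which log2 values do not allow. Each p-value rests on 1 estimate of the spread per gene, pooled over the 8 groups of all 82 libraries. These include mutant littermates and several PND 5 pups of a litter, though the WT groups at 12 months hold mice of different litters. On the WT libraries of 12 months alone, limma called 0 genes, with 254 at an unadjusted p under 0.05.

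The lists (33, drawn in the plot of lists) were described over the 16040 genes in which no pair of 12 month littermates had equal values. Named genes are the 15 with the smallest p in each direction, the sodium channels of the list, the study's pathway-table genes, *Chd8*, *Kdr* and *Ptprb*, and up to 4 members of each described list with the smallest p. Other genes are marked. Some members of 2 lists are not reported here and were left out of them. The members, lists and rules were chosen with earlier results of these data known. Alternatives were other filters, scalings, batch terms, litter or replicate blocks, weights, single ages and left-out batches or libraries. Gene positions are from GENCODE M21 (97 of 99 names matched), and 12 mural promoters from RefSeq. Figures used Python 3.11.15 and matplotlib 3.10.9.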

Additional observations from a re-analysis of the deposited data

Results flagged for a closer look

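In 198 groups of 9 or 10 libraries (DM and oil for each of 99 named genes), the highest or lowest library stood far from its nearest neighbour, by Dixon's 95% criterion, in 18 (9.09%), where chance alone gives about 1 group in 20. Values are on the log2 scale after the fitted technical terms were taken out.

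Oil library 4 was high in 3 interferon genes, with 9.60 for *H2-D1*, 4.10 for *Ifit1* and 7.07 for *Oasl2*, where the next oil libraries were at 8.63, 2.69 and 5.13. DM library 3 was high in 2 endothelial genes and in *Dock5*, with 7.90 for *Flt1*, 9.02 for *Tek* and 7.26 for *Dock5*. Oil library 6 was low in 2 immediate early genes and in *Cdk1*, with 11.34 for *Nr4a3*, 11.17 for *Fosl2* and 10.39 for *Cdk1*. Oil library 3 was high in *Hyls1* (8.46) and low in *Rps6ka1* (8.91). DM library 6 was low in *2410004I01Rik* (5.46) and *Adamtsl4* (1.36), DM library 7 low in *Rnf141* (8.89) and *F5* (3.35), and oil library 5 low in *Chrna5* (7.70). *Cyp2u1* was high in DM library 5 (6.42) and low in oil library 9 (5.61).

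The difference between DM and oil in WT mice was not the same at 12 months and PND 5 by the limma test of the difference itself in 17 named genes, whose values (12 months minus PND 5) follow. It was above 0 for *A330102I10Rik* (0.52), *Mns1* (0.43), *Pinx1* (0.32), *Rian* (0.32), *Hyls1* (0.31), *Tex9* (0.30), *Srsf7* (0.22) and *Srsf10* (0.22). It was below 0 for *Adgrg3* (−0.48), *Tie1* (−0.40), *Pdgfrb* (−0.40), *Man2b2* (−0.40), *Gper1* (−0.39), *Mcam* (−0.31), *Mmp15* (−0.29), *Cdc42ep2* (−0.27) and *Slc6a9* (−0.23). Most of these genes were taken for their 12 month values, and no call of the 17 held with litter alone as a random effect, while all 17 held with batch as a factor beside it.

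Between genotypes at 12 months, WT minus mutant, *Trp73* (0.57) and *Lrrc46* (−0.52) passed with litter alone as a random effect (limma adjusted p = 0.0070 and 0.031). Neither passed as fitted or with batch as a factor beside litter, and *Trp73* also passed with sample weights and without DM library 2 or oil library 1.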

How the results depend on the processing

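Of genes called between DM and oil in WT mice at 12 months there were 0 as fitted. Sample weights, which gave the 4 libraries of batch 1 weights of 0.0948 to 0.177, called 7, batch as a factor within age 2, the same with litter as a random effect 2, and leaving out batch 1 called 1. Leaving out each library in turn called 0 to 1. Other filters, both scalings, groups only, single ages, litter as a random effect, batch as a factor shared by both ages, and leaving out oil libraries 1 and 4 called 0. The fit with a replicate block called 2, and 692 genes had an unadjusted p under 0.05. By the labels, same-numbered DM and oil libraries share a batch but no litter, and no other link between them is given. Their residuals had a median correlation of 0.47 over 9 pairs (lowest −0.20). Over 14 pairs of the same batch with other numbers it was 0.33.

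The difference between genotypes called 0 genes as fitted, 1 with sample weights, 2 with litter as a random effect, 0 with batch as a factor and litter as a random effect, and 0 to 1 without single libraries (*Trp73* without DM library 2 or oil library 1).

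The difference between ages called 93 genes as fitted, 47 with no filter, 658 with batch as a factor within age, 289 with batch as a factor shared by both ages, 257 with batch as a factor and litter as a random effect, 2491 with sample weights, 768 with the replicate block, and 0 with groups only or with litter as a random effect. It called 338 without batch 1, 0 without batch 2 or batch 3, and 22 without batch 4, and 0 to 330 without single libraries (0 without DM library 6 or oil library 6, and 330 without DM library 5). The cause was not tested. Among the named genes' 12 month differences, 17 values, from 7 genes, passed under an alternative. Shared-factor batch fits, the joint batch and litter fits and the fit without oil libraries 1 and 4 were chosen after seeing the data. Values near 0 carry no sign: *Scn2a* changed its sign in 13 of 41 alternatives and *Scn9a* in 10.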
